A study of Mus musculus with 8 samples.

Results

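The MYC network of transcription factors was followed in mouse embryonic fibroblasts as 10 genes: Myc, Mycn, Mycl, Max, Mxd1, Mxi1, Mxd3, Mxd4, Mnt and Mlx. They were taken by gene symbol, and each symbol matched 1 of the 54838 gene rows of the count tables. All 10 passed the filter on low counts in both comparisons. Polyadenylated RNA of 8 libraries was counted, 2 in each of 4 groups. The n-Sen fibroblasts had been made senescent with nutlin3a, which frees p53 from MDM2. Their induction began with a G2 arrest by RO3306, which inhibits CDK1, and nutlin3a was then given for 48 h. A culture of 14 days with BI-2536 followed, which blocks PLK1 and acts on cells that still divide (100 nM). Proliferating fibroblasts were the group set against them. In the other comparison n-Sen cells spent 24 h in HEPES-buffered medium brought to an alkaline pH, and n-Sen cells in control medium of the same kind were set against these. All 3 senescent groups thus carry the same drugs, and senescence cannot be told apart from the drugs and the time in culture. The labels name no mouse strain, embryonic age, medium pH or separate cultures, so p-values measure the spread between libraries, which may be technical.

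MYC proteins do not bind DNA alone. They pair with MAX through a basic helix-loop-helix leucine zipper, bind E-box sequences such as CACGTG, and recruit acetyltransferase complexes that raise transcription of genes for growth, ribosome production and nucleotide synthesis. The MXD proteins and MNT pair with the same MAX and bind the same boxes, but bring in SIN3 and histone deacetylases and lower transcription. MLX is a second hub that pairs with the glucose-sensing factors MondoA and ChREBP, and also with MNT and some MXD proteins. In many cell lineages MYC falls and MXD proteins rise as cells leave the cell cycle.

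Libraries held between 40608517 and 54183060 counts. All 12 fibroblast markers were counted in every library, with a summed level of 38554 and 37708 CPM in n-Sen and 17298 and 16982 CPM in proliferating cells. Much of this sum was Fn1, with 20584 and 19908 CPM in n-Sen and 5535 and 5492 CPM in proliferating cells. Of the 12 markers 10 rose and 2 fell, Pdgfra by 3.17 and Thy1 by 0.22 on the log2 scale. CPM here are counts scaled to a common library size with TMM. Mki67, the proliferation antigen Ki-67, had 9.88 and 6.37 CPM in n-Sen and 410 and 427 CPM in proliferating cells. All 20 macrophage markers rose in n-Sen, by 2.03 to 5.40 on the log2 scale, with summed levels of 1387 and 1478 CPM in n-Sen against 70.9 and 63.5 CPM in proliferating cells, and none of the 20 was at 0 counts in any library. Summed epithelial markers came to 8.70 and 9.13 CPM in n-Sen and 86.6 and 78.0 CPM in proliferating cells, and 4 of the 6 tested fell while 1 rose. Summed endothelial markers came to 6.86 and 5.54 CPM in n-Sen and 32.9 and 26.7 CPM in proliferating cells, and 2 of the 3 tested fell. Of all 19264 genes tested in this comparison, 34.0% rose and 33.1% fell. The endothelial share called, 66.7%, was thus near the 67.1% of all genes. The part of these marker changes in the members' values was not tested. In bulk RNA, fewer cells of a type and less RNA per cell cannot be told apart.

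The E-box is the sequence through which the network acts, so the promoter windows of 4 members are shown: the member with the steepest rise in n-Sen, the MXD gene that fell there, and the pair that rose in alkaline medium. Each window runs from 250 bases before to 50 bases after the RefSeq start site, on build GRCm38.p6 and on the strand of the gene. Capitals mark CACGTG, which reads the same on both strands.
Mxd4, chr5:34187661-34187960, minus strand: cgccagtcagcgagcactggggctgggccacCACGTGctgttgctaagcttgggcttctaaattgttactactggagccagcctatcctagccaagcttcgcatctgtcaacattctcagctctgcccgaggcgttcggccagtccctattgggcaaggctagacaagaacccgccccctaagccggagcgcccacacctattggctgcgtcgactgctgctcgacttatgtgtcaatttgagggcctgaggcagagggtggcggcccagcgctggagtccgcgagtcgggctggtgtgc
Mxd3, chr13:55329682-55329981, minus strand: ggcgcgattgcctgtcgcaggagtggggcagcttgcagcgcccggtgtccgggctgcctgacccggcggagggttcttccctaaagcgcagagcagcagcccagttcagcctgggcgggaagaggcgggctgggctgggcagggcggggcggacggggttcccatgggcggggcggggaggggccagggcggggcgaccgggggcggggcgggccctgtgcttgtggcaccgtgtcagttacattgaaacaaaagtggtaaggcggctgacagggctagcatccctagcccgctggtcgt
Max, chr12:76962199-76962498, minus strand: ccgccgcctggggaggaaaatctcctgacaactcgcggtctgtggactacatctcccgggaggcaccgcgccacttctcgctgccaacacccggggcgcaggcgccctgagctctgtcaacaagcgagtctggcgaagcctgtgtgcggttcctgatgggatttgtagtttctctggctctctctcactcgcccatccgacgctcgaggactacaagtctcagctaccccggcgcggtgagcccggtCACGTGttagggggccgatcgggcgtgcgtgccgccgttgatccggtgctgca
Mnt, chr11:74830674-74830973, plus strand: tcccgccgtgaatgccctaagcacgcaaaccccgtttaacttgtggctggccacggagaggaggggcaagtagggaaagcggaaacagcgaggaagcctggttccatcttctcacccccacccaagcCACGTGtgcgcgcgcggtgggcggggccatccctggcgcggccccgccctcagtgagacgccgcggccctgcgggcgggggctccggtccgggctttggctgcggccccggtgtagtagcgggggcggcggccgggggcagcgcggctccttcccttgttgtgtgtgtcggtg
The first base of CACGTG lay at -219 in Mxd4, at -3 in Max and at -123 in Mnt relative to the start site. Mlx held one as well, at -40. Of the 9 members with a window in the RefSeq table, which has none for Myc, these 4 carried the box, as did 8.09% of the 27025 genes in that table. G and C made up 55% to 76.7% of the bases in each member window, where the median of all windows was 52.7%. The part of base content in the number of boxes was not tested. The E2F motif TTTGGCGC, searched on both strands, occurred at -183 and -168 in Mycn and in no other member window, against 0.585% of genes. The E2F motif TTTCCCGC was found in none of the member windows, against 1.24% of genes. The motifs do not overlap each other. The Mxd3 window held none of the 3 motifs.

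Senescence was set against proliferation first. Myc and Mycn were lower in n-Sen, and 3 of the 4 MXD genes were higher. Myc fell to 0.382 times its level in proliferating cells, and Mxd4 rose 3.24-fold. Of the 10 members, 4 rose, 4 fell and 2 did not pass. The test was the quasi-likelihood one of edgeR, with p-values adjusted over all genes by Benjamini-Hochberg and a threshold of 0.05. The background was high: 67.1% of the 19264 genes tested were called, 34.0% as higher and 33.1% as lower. For 8 members, and for 83.4% of all genes, no library of one group lay within the range of the other.

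**Figure D1:**
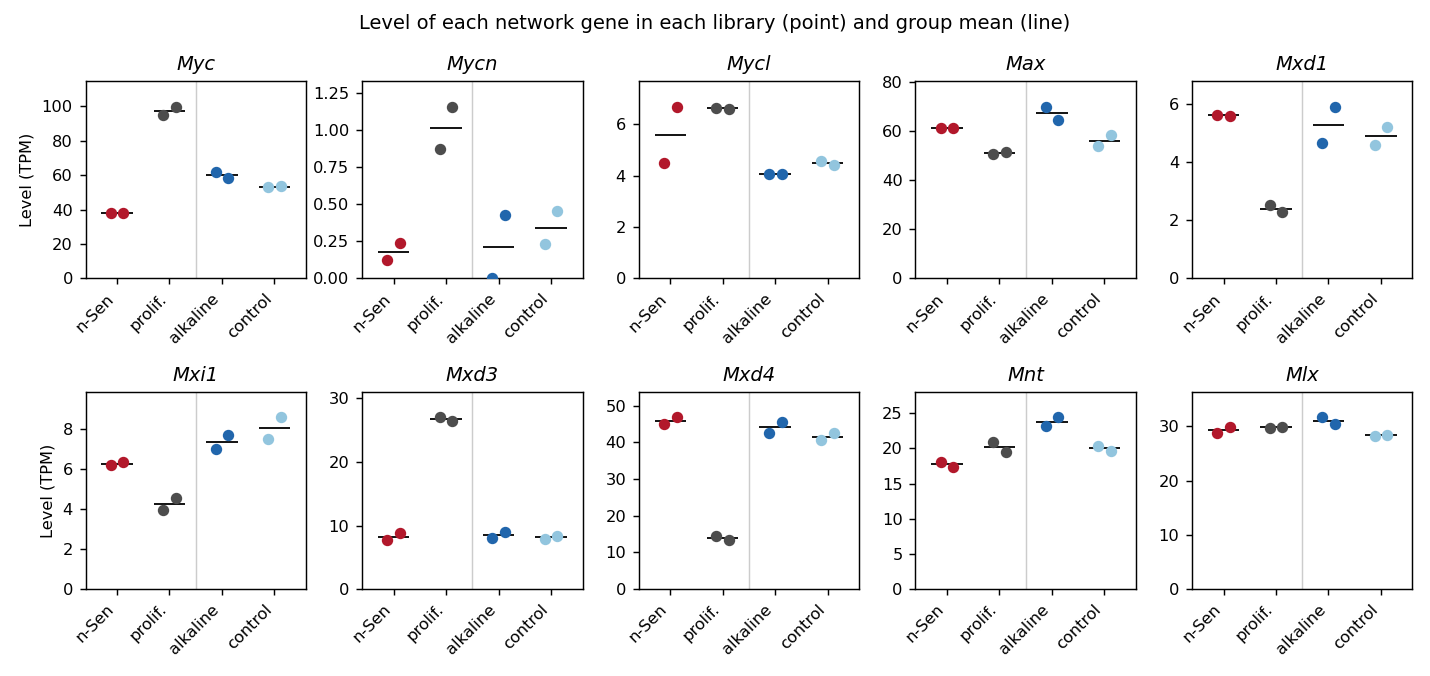
Level of each member in every library, in TPM, which also divides by exon length (y axis from 0, own range per gene); points are libraries, lines are group means, and the grey line parts the 2 comparisons. Myc averages 37.8 TPM in n-Sen and 97.3 TPM in proliferating cells, while Mxd4 averages 45.9 TPM in n-Sen and 14.0 TPM in proliferating cells.

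Myc, the broadly expressed MYC gene (chromosome 15, 61985391 to 61990374 on mm10), had 32.9 and 33.3 CPM in n-Sen, against 86.0 and 87.3 CPM in proliferating cells. Both n-Sen libraries lay well below both proliferating ones. The log2 fold change was -1.39 ± 0.066 (SE) with an adjusted p of 4.17e-12, and over 10 alternative analyses it stayed between -1.40 and -1.29. Mycn, best known from the embryonic nervous system and neuroblastoma (chromosome 12, 12936093 to 12941914), was barely expressed. It had 6 and 14 counts in n-Sen, or 0.129 and 0.259 CPM, against 40 and 62 counts in proliferating cells, or 0.960 and 1.23 CPM. These counts do not overlap, and Mycn fell by 2.47 ± 0.52 on the log2 scale (adjusted p = 4.33e-04). Mycl (chromosome 4, 122995652 to 123002485), a family member first found in lung cancer, had 5.79 and 8.74 CPM in n-Sen, against 8.93 and 8.60 CPM in proliferating cells. Its n-Sen libraries differed more from each other than the groups did, and it did not pass (-0.26 ± 0.17, adjusted p = 0.182). The library taken decided the value of Mycl: the log2 fold change was 0.01 without n-Sen replicate 1 and -0.60 without n-Sen replicate 2, where it passed (adjusted p = 0.00551). Its adjusted p ran from 0.00551 to 0.969 over 10 alternatives.

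Max, the shared partner (chromosome 12, 76937269 to 76962201), had 70.5 and 71.5 CPM in n-Sen, against 60.6 and 59.6 CPM in proliferating cells. The rise was small beside that of the MXD genes (0.24 ± 0.062, adjusted p = 0.00230) and its groups did not overlap. Per length, Max and Myc changed places: Max had 61.2 TPM in both n-Sen libraries against Myc at 37.8 and 37.7 TPM there, whereas Max had 50.6 and 51.3 TPM in proliferating cells and Myc 95.1 and 99.6 TPM. The ratio of Max to Myc in TPM was 1.62 in each n-Sen library, and 0.532 and 0.515 in proliferating cells.

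Mxd4, which encodes MAD4 (chromosome 5, 34173883 to 34187720), had 122 and 129 CPM in n-Sen, against 41.3 and 36.5 CPM in proliferating cells. It showed the steepest rise of the 10 members, at 1.69 ± 0.068 on the log2 scale (adjusted p = 4.98e-13). Mxd1, which encodes MAD1, the founding member (chromosome 6, 86647042 to 86669161), had 12.7 and 12.8 CPM in n-Sen and 5.95 and 5.18 CPM in proliferating cells. Mxd1 rose by 1.20 ± 0.13 on the log2 scale (adjusted p = 3.44e-07). MAD1 is well known from differentiating myeloid cells, and the macrophage list rose beside it, as given above. The part of that rise in the level of Mxd1 was not tested. Mxi1, which encodes the MAX interactor MXI1 (chromosome 19, 53310518 to 53375810), had 13.5 and 14.1 CPM in n-Sen and 9.02 and 10.0 CPM in proliferating cells. Its rise was the smallest of the 3 MXD genes, at 0.54 ± 0.12 (adjusted p = 7.38e-04).

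Mxd3, which encodes MAD3 (chromosome 13, 55325168 to 55329823), went the other way. This MXD gene is known to be expressed in S phase, in cells that still divide. It had 5.87 and 6.74 CPM in n-Sen, against 21.3 and 20.2 CPM in proliferating cells, with no overlap, and fell by 1.71 ± 0.12 on the log2 scale (adjusted p = 7.64e-10). Mxd3 shares 105 exon bases with Prelid1 on the other strand, a far more abundant gene that encodes a mitochondrial protein. Prelid1 had 223 and 233 CPM in n-Sen and 356 and 357 CPM in proliferating cells. The strand setting of the counting is not given in the sources used here, and 5 of the 8 libraries have a fractional count for Mxd3. How far Prelid1 reads enter the value of Mxd3 was not tested. Mxd4 likewise shares 514 exon bases with the antisense gene Gm42846, which had 10.1 and 10.2 CPM in n-Sen and 2.86 and 3.11 CPM in proliferating cells. Mxi1 shares 194 with Gm10197, at no more than 1.52 CPM in any library.

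Mnt, the large and widely expressed MAX-binding repressor (chromosome 11, 74830920 to 74845725), had 26.8 and 26.1 CPM in n-Sen, against 32.1 and 29.1 CPM in proliferating cells. The groups did not overlap, and Mnt fell by 0.21 ± 0.084 on the log2 scale, just past the threshold (adjusted p = 0.0383). That call held in 4 of 10 alternatives (adjusted p from 0.0143 to 0.258) and was lost in DESeq2 (0.0952), among others. Leaving out proliferating replicate 1 (0.258) or either of the n-Sen libraries (0.158 without replicate 2) also ended it. Mlx (chromosome 11, 101087277 to 101092207) had 18.4 and 19.4 CPM in n-Sen and 19.8 and 19.3 CPM in proliferating cells, which overlap, and it did not pass (-0.05 ± 0.095, adjusted p = 0.692). Mlx shares 385 exon bases with Psmc3ip on the other strand. Psmc3ip had 2.79 and 2.33 CPM in n-Sen, against 13.4 and 9.59 CPM in proliferating cells. How far its reads enter the value of Mlx was not tested.

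**Figure D2:**
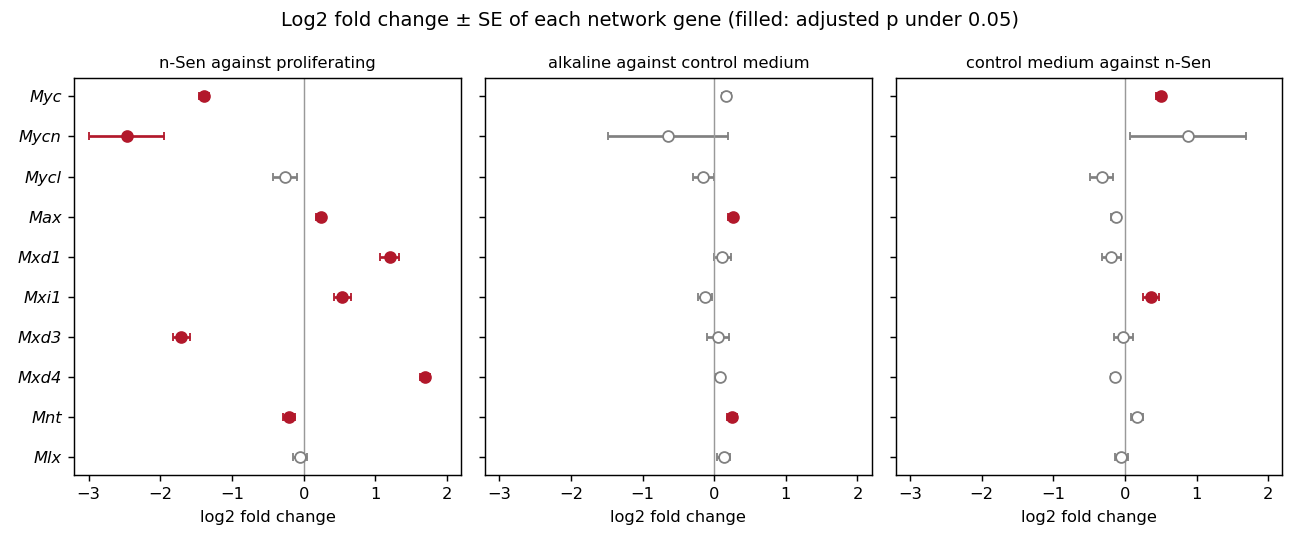
Log2 fold change of each member with its SE in the 3 comparisons (x axis); filled points passed an adjusted p of 0.05. In n-Sen against proliferating cells the members spread from -2.47 for Mycn to 1.69 for Mxd4, and in alkaline against control medium only Max (0.26) and Mnt (0.25) are filled.

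Summed per length, MXD transcripts exceeded MYC transcripts in n-Sen, and MYC transcripts exceeded MXD transcripts in proliferating cells. The 3 MYC genes came to 42.4 and 44.6 TPM in n-Sen, against 103 and 107 TPM in proliferating cells. The 4 MXD genes came to 64.6 and 67.5 TPM in n-Sen, against 48.1 and 46.6 TPM in proliferating cells. The ratio of MXD to MYC transcripts was thus 1.52 and 1.51 in n-Sen, and 0.469 and 0.434 in proliferating cells. What made up the MXD sum also differed. Mxd4 gave 69.7% and 69.3% of it in n-Sen, against 30.4% and 28.6% in proliferating cells. Mxd3 gave 12% and 13% in n-Sen, against 56.1% and 56.8% in proliferating cells. These shares rest on the exon-union lengths, 8483 bases for Mxd4 and 2369 bases for Mxd3. Before division by length Mxd4 exceeded Mxd3 in proliferating cells too, at 41.3 and 36.5 CPM against 21.3 and 20.2 CPM. These sums describe transcripts, not proteins.

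**Figure D3:**
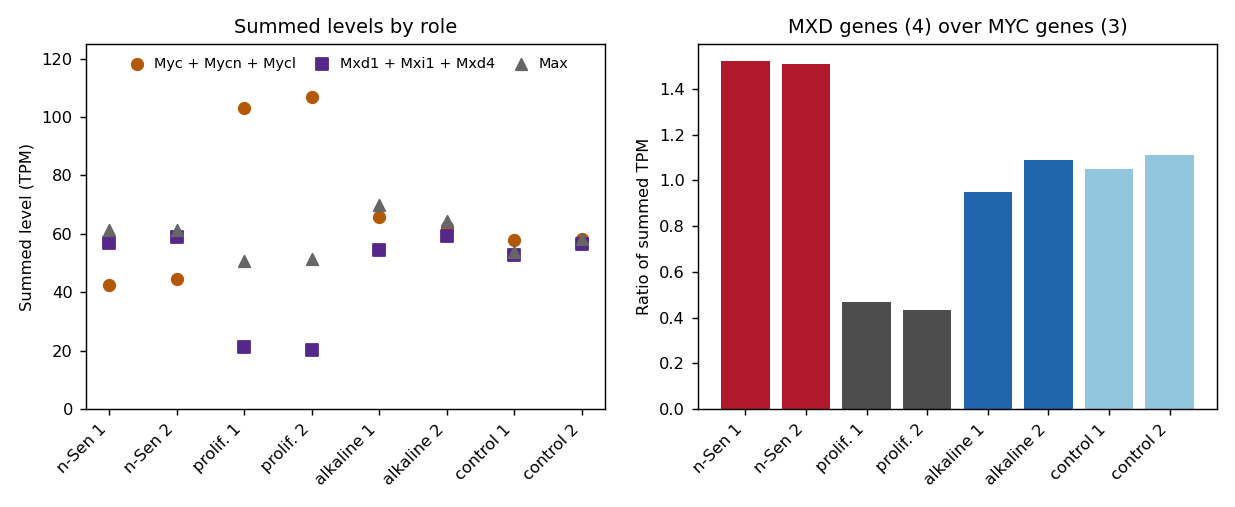
Left, summed level in TPM of Myc, Mycn and Mycl, of Mxd1, Mxi1 and Mxd4, and of Max in each library; right, the ratio of the 4 MXD genes to the 3 MYC genes in summed TPM (bars from 0). The ratio is 1.52 and 1.51 in n-Sen and 0.469 and 0.434 in proliferating cells, and lies between 0.948 and 1.11 in the 4 libraries in alkaline or control medium.

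The network's targets and helpers were read from lists of well-known genes. Of 38 genes that MYC is known to activate, 35 fell in n-Sen, 1 rose and 2 did not pass, where 33.1% of all genes fell, and their median log2 fold change was -1.34, where that of all genes was 0.001. Tfrc, the transferrin receptor, had 30.8 and 33.2 CPM in n-Sen, against 218 and 222 CPM in proliferating cells. Dkc1, the pseudouridine synthase dyskerin, fell by 2.56 ± 0.073 on the log2 scale, and Ncl, the nucleolar protein nucleolin, by 1.47 ± 0.043. The gene that rose was Ccnd2, which encodes cyclin D2, with 1259 and 1262 CPM in n-Sen and 460 and 430 CPM in proliferating cells. Tert (0.06) and Nme2 (0.04) did not pass. Markers of dividing cells moved with this list: 7 of 7 fell, with summed levels of 75.7 and 68.7 CPM in n-Sen against 1473 and 1484 CPM in proliferating cells. Their part in the fall of the MYC-activated genes was not tested.

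Of 11 genes that MYC is known to repress, 8 rose and 3 fell (median 0.89). These were 72.7% and 27.3%, where 34.0% of all genes rose and 33.1% fell. The CDK inhibitor genes parted ways. Cdkn2b (p15) had 152 and 163 CPM in n-Sen and 26.5 and 26.4 CPM in proliferating cells, and Cdkn1a (p21), also a direct p53 target, had 869 CPM in both n-Sen libraries and 225 and 199 CPM in proliferating cells. Cdkn1b (p27) fell by 2.17 ± 0.10 on the log2 scale, with the growth arrest gene Gas1 (-0.91 ± 0.090) and the stress gene Ndrg1 (-1.17 ± 0.14). Thbs1, which encodes thrombospondin 1, rose by 1.43 ± 0.037.

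Of 14 MYC coactivators 13 fell, 0 rose and Ep300 did not pass (median -0.77). The share that fell was 92.9%, where 33.1% of all genes fell. Those of smallest p were the ATPase gene Ruvbl2 (-1.62 ± 0.065), the MYC-binding scaffold gene Wdr5 (-1.40 ± 0.069), Ruvbl1 (-1.09 ± 0.074) and the remodeller gene Ep400 (-0.98 ± 0.062). Of 12 corepressor genes that serve MXD and MNT, 7 fell, 2 rose and 3 did not pass (median -0.24), so that 75.0% were called, near the 67.1% of all genes. Hdac1, Hdac2 and Sin3a fell by 0.81, 0.64 and 0.70 on the log2 scale, while Sap18 and Arid4a rose by 0.56 ± 0.052 and 0.27 ± 0.085. The call of Arid4a was lost without proliferating replicate 1 or n-Sen replicate 1, and its adjusted p ran from 0.00126 to 0.123 over 10 alternatives.

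All 16 genes that act on MYC protein or antagonise it changed, 13 lower and 3 higher (median -0.60). That was 81.2% lower and 18.8% higher, where all genes gave 33.1% and 34.0%. The 4 of smallest p encode proteins known to stabilise MYC or drive its turnover and act mainly in dividing cells. Aurka, Plk1 and Cip2a fell by 4.30, 5.36 and 3.74 on the log2 scale, and the ubiquitin ligase subunit gene Skp2 by 2.96. Fbxw7, the ubiquitin ligase subunit that marks phosphorylated MYC for degradation, had 27.7 and 25.1 CPM in n-Sen, against 17.0 and 19.7 CPM in proliferating cells. It rose by 0.52 ± 0.099 on the log2 scale, as did the kinase gene Gsk3b (0.31 ± 0.072), whose product primes MYC for FBXW7, and the ligase gene Trim32 (0.40 ± 0.072).

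Around MLX, the targets split. Of 7 genes known to answer to MondoA or ChREBP with MLX, 6 were tested, 2 rose and 4 fell (median -1.0). These were 33.3% and 66.7%, where 34.0% of all genes rose and 33.1% fell. Txnip, the thioredoxin-interacting protein gene and a classic MondoA target, had 106 and 109 CPM in n-Sen, against 32.3 and 34.1 CPM in proliferating cells. Its relative Arrdc4 rose by 1.36 ± 0.13, whereas the lipid synthesis genes Elovl6, Fasn and Acaca fell by 2.31, 1.10 and 0.89 on the log2 scale. Mlxip, which encodes MondoA, had 50.2 and 50.7 CPM in n-Sen and 43.6 and 46.7 CPM in proliferating cells and did not pass (adjusted p = 0.0522). Mlxipl, which encodes ChREBP, had at most 0.159 CPM in any library and was not tested. Mga, a large MAX partner, had 91.1 and 87.6 CPM in n-Sen and 95.6 and 112 CPM in proliferating cells, and its call (-0.22 ± 0.071, adjusted p = 0.0118) was lost without proliferating replicate 2, without n-Sen replicate 2 and with upper-quartile scaling (5.11e-06 to 0.195 over 10 alternatives).

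**Figure D4:**
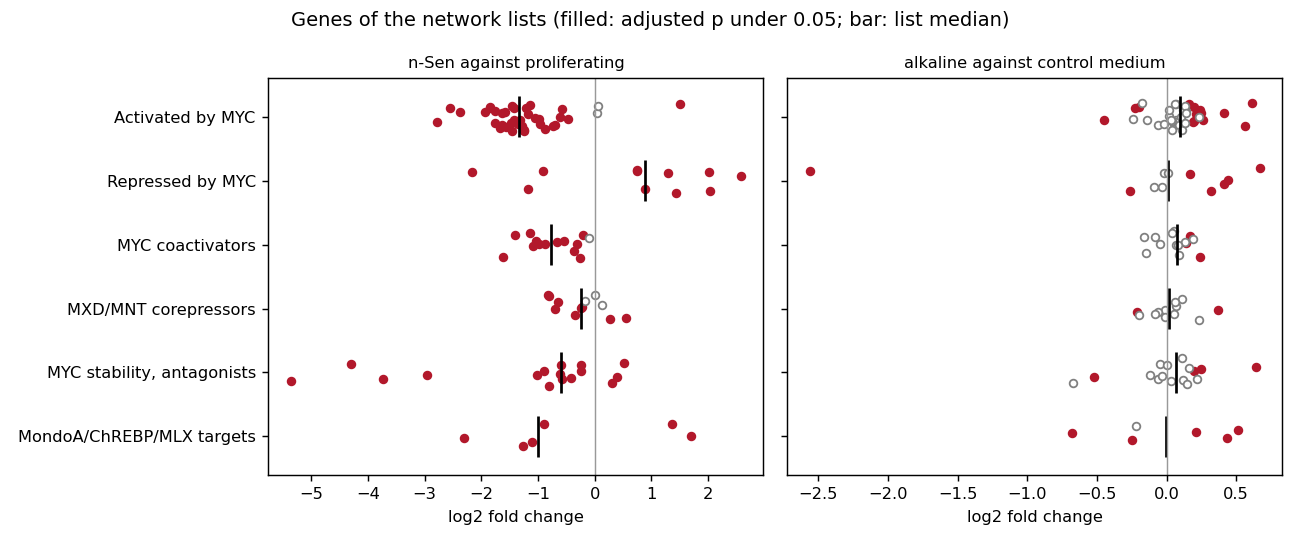
Log2 fold change of every tested gene of 6 lists around the network (x axis), with filled points for an adjusted p under 0.05 and a bar for the list's median. The MYC-activated list centres on -1.34 in n-Sen against proliferating cells and on 0.10 in alkaline against control medium.

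Alkaline medium was set against control medium next, both on n-Sen cells. Here 2 members rose, Max and Mnt, and 8 did not pass, where 20.0% of the 19129 genes tested were called, 9.58% as higher and 10.4% as lower. No member fell. By an unadjusted p under 0.05, Myc (0.0158) is added, a threshold that 5874 of the 19129 genes tested also passed. The groups did not overlap for 6 members, as for 56.7% of all genes.

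Max had 81.8 and 74.8 CPM in alkaline medium, against 62.5 and 67.4 CPM in control medium, a log2 fold change of 0.26 ± 0.061 (adjusted p = 0.00296). Its call was lost without alkaline replicate 1 (0.0617; 9.74e-05 to 0.0617 over 10 alternatives). Mnt had 35.0 and 36.3 CPM in alkaline medium, against 30.5 and 29.2 CPM in control medium, a log2 fold change of 0.25 ± 0.073 (adjusted p = 0.0158). That call was lost without control medium replicate 2 (0.0902) or alkaline replicate 2 (0.112), and the adjusted p ran from 0.00780 to 0.112 over 10 alternatives. Both rises were about 1.2-fold (1.20 for Max and 1.19 for Mnt), and in each case both alkaline libraries lay above both control libraries.

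Myc had 54.7 and 50.8 CPM in alkaline medium, against 46.5 and 46.9 CPM in control medium. The groups did not overlap, but the difference of 0.17 ± 0.064 did not pass (adjusted p = 0.0699), nor did it in any of 10 alternatives (0.0563 to 0.449). Mycn had 0 and 20 counts in alkaline medium and 12 and 24 in control medium, too few to place it. Of the MXD genes, Mxd4 had 118 and 124 CPM in alkaline medium and 111 and 117 CPM in control medium (0.08 ± 0.050, adjusted p = 0.279). The log2 differences of Mxd1, Mxi1 and Mxd3 lay between -0.13 and 0.11 with overlapping groups. Mycl (-0.15 ± 0.15) and Mlx (0.13 ± 0.091) did not pass although their libraries did not overlap. The ratio of MXD to MYC transcripts was 0.948 and 1.09 in alkaline medium, and 1.05 and 1.11 in control medium, which overlap.

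Among the 38 MYC-activated genes, 11 rose, 3 fell and 24 did not pass in alkaline medium (median 0.10, all genes -0.009). The shares were 28.9% higher and 7.89% lower, where all genes gave 9.58% and 10.4%. Odc1, which encodes ornithine decarboxylase of polyamine synthesis, had 225 and 218 CPM in alkaline medium, against 153 and 146 CPM in control medium. Srm, the spermidine synthase gene of the same pathway, rose by 0.41 ± 0.057 and Tfrc by 0.61 ± 0.083. Those that fell were Ccnd2 (-0.45 ± 0.037), Impdh2 (-0.23 ± 0.060) and Paics (-0.20 ± 0.052), the last pair acting in purine synthesis. The call of Impdh2 was lost without alkaline replicate 1 (0.00239 to 0.0832 over 10 alternatives) and that of Paics without control medium replicate 1 (0.00124 to 0.0719). The MYC-repressed list gave 5 higher, 2 lower and 4 not passing (median 0.01). Here 45.5% were higher and 18.2% lower, beside the same 9.58% and 10.4% of all genes. Its steepest change was that of Gas1, with 2.01 and 2.09 CPM in alkaline medium and 13.6 and 10.6 CPM in control medium, and Ndrg2 rose by 0.67 ± 0.077.

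Txnip fell, with 89.8 and 80.8 CPM in alkaline medium against 132 and 139 CPM in control medium, a log2 fold change of -0.68 ± 0.055 (adjusted p = 3.47e-09). In the MondoA and ChREBP list, Fasn, Klf10 and Acaca rose by 0.43 ± 0.045, 0.51 ± 0.083 and 0.21 ± 0.056, and Arrdc4 fell with Txnip (-0.25 ± 0.080), giving 3 higher and 2 lower of 6. Arrdc4 passed in 6 of its 10 alternatives (0.0145 to 0.259) and was lost without alkaline replicate 2 or control medium replicate 1. Acaca passed in 8 of 10 (0.00367 to 0.106) and was lost without control medium replicate 1 or alkaline replicate 1. Mlxip rose slightly (0.18 ± 0.062, adjusted p = 0.0419), a call lost in 7 of its 10 alternatives (0.0356 to 0.250). Of the coactivators 3 rose, Cdk9, Ep400 and Trrap, and 11 did not pass, a share of 21.4% called where that of all genes was 20.0%. Without control medium replicate 1 or alkaline replicate 1, 1 rose, and Trrap passed in 4 of its 10 alternatives (0.0165 to 0.224). Of the corepressor genes, Sap18 fell (-0.21 ± 0.045). Of the 16 genes that act on MYC protein, 3 rose and 1 fell, or 25.0% called where all genes gave 20.0%, and 1 rose without control medium replicate 2 or alkaline replicate 1. Pim1, a kinase that stabilises MYC, had 24.9 and 25.6 CPM in alkaline medium and 15.9 and 16.3 CPM in control medium. Fbxw7, whose product marks MYC for degradation, also rose (0.25 ± 0.074, adjusted p = 0.0170). Usp36 rose as well (0.20 ± 0.069, adjusted p = 0.0405), a call kept in 3 of its 10 alternatives. The deubiquitinase gene Usp28 fell by 0.52 ± 0.12. Macrophage markers moved as well: 9 of 20 fell and 0 rose, with summed levels of 1261 and 1262 CPM in alkaline medium and 1433 and 1356 CPM in control medium. Of the 12 fibroblast markers 7 fell and 3 rose, or 58.3% and 25.0%, where 10.4% and 9.58% of all genes did. Among them were Thy1 at -0.57 ± 0.041, Pdgfra at -1.05 ± 0.14 and Col1a1 at 0.42 ± 0.040. The part of either marker list in these values was not tested.

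Control medium was set against n-Sen in a fit of all 8 libraries. These groups lie in different tables, so the medium cannot be told apart from other differences in handling. Myc had 46.5 and 46.9 CPM in control medium, against 32.9 and 33.3 CPM in n-Sen, and rose by 0.50 ± 0.064 on the log2 scale (adjusted p = 1.11e-05). It passed in all 12 alternatives (2.72e-10 to 7.35e-04). Mxi1 had 16.6 and 18.9 CPM in control medium and 13.5 and 14.1 CPM in n-Sen (0.36 ± 0.11, adjusted p = 0.0321). Mxi1 did not pass once either n-Sen library (0.190 without replicate 1, 0.112 without replicate 2) or control medium replicate 2 (0.304) was left out, and its adjusted p ran from 0.0204 to 0.304 over 12 alternatives. The other 8 members did not pass. Of 20215 genes tested, 11.1% were called, 6.18% as higher and 4.96% as lower, and the groups did not overlap for 7 members and for 52.0% of genes. Among the MYC-activated genes 4 rose, 6 fell and 28 did not pass, with Nop58, Ppan and Gnl3 of ribosome production higher by 0.27, 0.37 and 0.18 and Ldha lower by 0.34. These counts rest on single libraries: without n-Sen replicate 2, 1 was higher and 1 lower, and without either proliferating library 7 were higher. Dividing-cell markers moved here too: 5 of 7 fell, with summed levels of 56.0 and 53.9 CPM in control medium and 75.7 and 68.7 CPM in n-Sen, and their part in these values was not tested.

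Whether a member moved differently in the 2 comparisons was tested in the same fit, as the log2 change in alkaline medium minus that in n-Sen. It passed for 6 of the 10 members, where 57.0% of genes passed. The difference was 1.56 ± 0.089 for Myc and 1.78 ± 0.18 for Mxd3, whose change was the more positive one in alkaline medium. It was -1.60 ± 0.087 for Mxd4, -1.09 ± 0.19 for Mxd1 and -0.66 ± 0.15 for Mxi1. Mnt differed by 0.47 ± 0.11 (adjusted p = 0.00109). For Max the difference was 0.03 ± 0.087 (adjusted p = 0.809), with rises of 0.24 ± 0.062 in n-Sen and 0.26 ± 0.061 in alkaline medium.

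Over all 4 groups, Myc ran from proliferating cells through alkaline and control medium down to n-Sen, and no neighbours in that order overlapped. Max ran from alkaline medium through n-Sen and control medium down to proliferating cells, also with no overlap between neighbours. Not every step passed the quasi-likelihood test: Myc in alkaline over control medium did not (adjusted p = 0.0699), nor did Max in n-Sen over control medium (0.223). Groups of 2 libraries often part: 83.4%, 56.7% and 52.0% of genes had no overlap in the 3 comparisons. The share of genes with no overlap along a whole order was not counted. Mxd4 was ordered n-Sen, alkaline medium, control medium and proliferating cells, of which n-Sen and alkaline medium overlapped. Mxd3 was highest in proliferating cells, and its senescent groups overlapped their neighbours. Mxd1 had the same group order as Mxd4, and alkaline medium overlapped both n-Sen and control medium.

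Genes that ran most like a member were sought among 9199 protein-coding genes with a mean of at least 10 CPM, by the root mean square distance of centred log2(CPM + 1) over the 8 libraries. The libraries fall into 4 groups, so a likeness rests largely on group means. Closest to Myc were Sipa1l2, Ctdp1 and Ipo5, at distances of 0.0758, 0.0805 and 0.0813 log2 units (Pearson's r = 0.988, 0.992 and 0.996). The nuclear import receptor gene Ipo5 had 242 and 256 CPM in n-Sen, against 570 and 548 CPM in proliferating cells, and 369 and 372 CPM in alkaline medium, against 326 and 328 CPM in control medium. Closest to Mxd3 were Xrcc1, Ddx20 and Rbmxl1 (0.0482, 0.0510 and 0.0522 log2 units). Xrcc1, a scaffold gene of single-strand break repair, had 11.9 and 13.6 CPM in n-Sen and 39.1 and 35.4 CPM in proliferating cells. Closest to Mxd4 were Sort1, Pomgnt2 and Ormdl3 (0.0346, 0.0477 and 0.0519 log2 units). Sort1, which encodes the sorting receptor sortilin, had 48.1 and 50.2 CPM in n-Sen and 16.1 and 13.9 CPM in proliferating cells.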

How the data were processed

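Per the labels' protocols, polyadenylated RNA gave dUTP libraries that keep strand. The submitters' processing notes name mm10 and, as tools, DESeq2 1.34.0, Subread 2.0.2 with featureCounts, HISAT2 2.1.0 and fastp 0.23.2. The strand setting and annotation release are not given in the sources used here. The authors deposited expected counts, which are estimated and often fractional (32.7% to 33.7% of a library's nonzero values), as 2 tables. They were rounded to whole numbers here. Columns were matched to libraries through the labels.

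Symbols, coordinates and exon-union lengths, used for TPM, came from GENCODE vM21 on GRCm38 (mm10). Low genes were removed with filterByExpr and libraries were scaled by TMM. Tests were quasi-likelihood F tests (edgeR 4.0.16, R 4.3.3), adjusted over all genes by Benjamini-Hochberg at a threshold of 0.05. Each comparison used its own 4 libraries. The comparison between the tables, and the difference of the 2 comparisons, used all 8. The SE was the absolute log2 fold change over the square root of F. In these 3 sets of libraries the coefficient of variation between libraries was estimated at 0.0646, 0.0579 and 0.0618. It is the square root of edgeR's common dispersion, and the part of it that is technical is not known. Within groups, a chi-square of counts gave 4.63 to 7.39 per degree of freedom, so no library repeated another. The procedure was also run on simulated data, with the common dispersion for every gene and far fewer changed genes than were called here. Its outcome is not reported here, and no result above rests on it. Alternatives were RLE or upper-quartile scaling, DESeq2 1.42.0, no filter, all 8 libraries, a replicate block, and leaving out each library; with 1 library left in a group, it is assumed to vary like the other group.

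The members and lists were chosen with earlier results of these data known. By rule the text names all members, up to 4 called genes of smallest p per list with up to 3 against its majority, genes that overlap a member, and 3 genes most like Myc, Mxd3 and Mxd4; some of the list genes are described only by count or are not reported here. Mki67, Nme2, Tert, Ep300 and Mlxip in n-Sen were named after their values were seen. Promoters are from RefSeq (GRCm38.p6).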

Additional observations from a re-analysis of the deposited data

How the results depend on the processing

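Over the alternatives, 184 values of called members kept their direction and call and 12 kept the direction but lost the call. None of the called ones reversed. The calls of Myc, Mycn, Max, Mxd1, Mxi1, Mxd3 and Mxd4 in n-Sen against proliferating cells passed in all 10 alternatives; that of Mnt did not. Between 7 and 8 members were called there without 1 library, of which 4 were higher and 3 to 4 lower (Mycl in place of Mnt without n-Sen replicate 2). In alkaline against control medium 1 to 2 members were called without 1 library, 1 to 2 higher and 0 to 1 lower; the lower one was Mycn without alkaline replicate 2, which leaves only the library with 0 counts. In control medium against n-Sen 1 to 2 were called, 1 to 2 higher and 0 to 1 lower, the lower one being Mycl without n-Sen replicate 1.

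Values that did not pass and changed sign are given as ranges of the log2 fold change without 1 library. In n-Sen against proliferating cells these were Mycl (-0.60 to 0.01) and Mlx (-0.09 to 0.00, and 0.05 with upper-quartile scaling). In alkaline medium they were Mycn (-7.09 to 0.31), Mxd1 (-0.07 to 0.26) and Mxd3 (-0.02 to 0.12). In control medium against n-Sen they were Mycl (-0.58 to 0.01) and Mxd3 (-0.11 to 0.08). For the difference of the comparisons they were Mycn (-4.68 to 2.76), Mycl (-0.16 to 0.46) and Max (-0.06 to 0.07). The cause was not tested beyond the library left out.

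MYC-activated genes called higher in n-Sen numbered 2 with upper-quartile scaling, which moved the median of all genes by 0.096. In control medium against n-Sen they numbered 2 higher with no filter on low counts, and 1 to 7 higher and 1 to 6 lower without 1 library. In the other comparisons 35 were lower and 1 higher (n-Sen), and 8 to 11 higher and 2 to 4 lower (alkaline), without 1 library. Without 1 library, control medium against n-Sen gave 731 to 1435 genes higher and 450 to 1196 lower.

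The labels do not say what the replicate numbers share. Same-numbered libraries did not deviate together (r = -0.03 for n-Sen with proliferating, -0.01 for alkaline with control, -0.004 for control with n-Sen). With the replicate block, 8, 2 and 2 members were called in the 3 comparisons and 6 in the difference, as without it. With 2 libraries a group, the calls of Max and Mnt in alkaline medium were lost without some single libraries, whereas the call of Max in n-Sen, of like size, was kept without each. Mycn rests on 0 to 62 counts per library.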
